A study of Mus musculus with 12 samples.

Results

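Kinesins and dyneins are the motors that walk along microtubules, and tubulins are the proteins those tracks are built from. The genes described here were the protein-coding genes of the deposited expression table whose symbols begin with the names of kinesin heavy chains (Kif and a digit), kinesin light chains (Klc and a digit), cytoplasmic dynein chains (Dync, Dynl) or alpha, beta and gamma tubulins with the gamma-tubulin ring complex (Tuba, Tubb, Tubg). That rule, which used no measured value, found 67 genes among 14852 in the table, of which 11830 were protein-coding. A pair of pseudogenes with matching names, Dynlt1-ps1 and Tubb4b-ps1, was left out by the rule.

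The cells were ID8, a mouse line of ovarian surface epithelium used as a model of ovarian cancer, grown either with cisplatin, a platinum drug that crosslinks DNA, or as controls. The study asked how N4-acetylcytidine (ac4C), an acetylated base placed in RNA by the enzyme Nat10, takes part in the response to the drug. There were 12 libraries in 4 groups of 3: cisplatin input, cisplatin precipitated with an antibody against ac4C, control input, and control precipitated in the same way. The sources used here do not give the dose or duration of the cisplatin treatment, and no other agent or allele is named. RNA levels below come from the 6 input libraries; the precipitated libraries enter only through the authors' peak table, which holds no value per library. No label says that the replicates came from separate cultures, and the p-values reflect only how these libraries vary, part of which may be technical.

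Microtubules form the mitotic spindle in dividing cells and the transport tracks of cells between divisions. Mitotic kinesins slide, anchor, bundle or shorten spindle microtubules and act in chromosome movement and cytokinesis, whereas transport kinesins carry vesicles, organelles and protein complexes, mostly outward. Cytoplasmic dynein carries cargo in the opposite direction, and its relative dynein 2 works in cilia. Genes of late cell division are commonly held under joint cell cycle control through a short promoter element, the cell cycle genes homology region (CHR), often together with CCAAT boxes.

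The CHR element, with the letters TTTGAA on either strand, was searched in RefSeq promoter windows of 300 bases (250 before to 50 after an annotated start, GRCm38.p6), which the tables held for 51 of the 67 genes in 56 promoters. It was found in the windows of 9 of 10 mitotic kinesins (90.0%), in 0 of 9 transport kinesins (10 windows) and in 17.9% of all 32851 promoters. Among the rest of the 51 genes, only Kif26b and Tubb4b held it, at bases -9 and -198 from the annotated start. The windows below, each 30 bases and 5′ to 3′ on the strand of the gene, are from 7 mitotic kinesins. They are shown because these 7 share the letters within 20 bases of their starts. RNA was higher in 4 of them (Kif23, Kif22, Kif18b, Kif20b) and lower in 3 (Kif11, Kif15, Kif4) in cisplatin-treated cells. Of the other 2 mitotic kinesins with the letters, farther upstream, Kif2c was higher and Kif14 lower. The windows of these 2 (chr4:117178723-117179022 and chr1:136467598-136467897) belong to annotated starts inside the gene. The gene spans begin at 117182624 (Kif2c, minus strand) and 136466301 (Kif14, plus strand). Capitals mark the element nearest the start, and where they read TTCAAA it lies on the opposite strand.
Kif23, chr9:61946780-61946809, minus strand: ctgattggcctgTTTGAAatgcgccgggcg
Kif22, chr7:127042420-127042449, minus strand: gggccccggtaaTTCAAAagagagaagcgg
Kif18b, chr11:102925104-102925133, minus strand: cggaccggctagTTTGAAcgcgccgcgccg
Kif20b, chr19:34922353-34922382, plus strand: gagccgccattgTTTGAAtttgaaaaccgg
Kif11, chr19:37376351-37376380, plus strand: tcgtctccatttTTCAAAattgaggcgcgg
Kif15, chr9:122951050-122951079, plus strand: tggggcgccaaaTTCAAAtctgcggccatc
Kif4, chrX:100626072-100626101, plus strand: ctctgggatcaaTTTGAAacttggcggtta
The element began at base -17 in Kif22 and at base -19 in Kif11 and Kif15, counting backwards from the annotated start, and at base 3 in Kif23, 4 in Kif18b, 8 in Kif20b and 20 in Kif4 counting forward from it. Within the 250 bases before the start alone it was found in 5 of 10 mitotic kinesins, against 16% of all promoters. The related letters TTCGAA and the E2F letters GGCGGGAA were in 0 of the 10 mitotic windows, against 1.56% and 2.19% of all promoters. Each motif was counted by itself, whether or not it overlapped another, and a match of letters is a description, not evidence of binding.

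The FPKM values (fragments scaled by gene length and library size) were whole multiples of a single read, and corresponded to 22201704 to 30159427 fragments in the cisplatin and 20682920 to 21900044 in the control libraries. FPKM summed to between 275194.8 and 278678.0 in cisplatin and between 258545.5 and 259158.3 in control libraries. Of 8 markers of ID8 and its parent epithelium, Krt8, Krt18, Krt19 and Msln were higher, Upk3b, Wt1 and Cdh2 lower, and Krt7 was under the filter on low values at 0.0105 ± 0.00925 FPKM in cisplatin and 0.178 ± 0.138 FPKM in control cells (mean ± SD, n = 3 each, as for all FPKM values with ± that follow). Of 5 leukocyte markers the table held only Cd68, at 8.89 ± 1.21 FPKM in cisplatin-treated and 2.41 ± 0.175 FPKM in control cells, and of 3 endothelial markers it held none; the part of cells or states marked by Cd68 in the results was not tested. In bulk RNA, fewer cells of a kind and less RNA per cell cannot be told apart.

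Genes reaching 1 FPKM in no fewer than 3 input libraries entered a limma fit on log2(FPKM + 1), which understates the change of low genes, and were called at a Benjamini-Hochberg adjusted p of 0.05 over all 11449 genes tested. Of the 67 genes 64 were tested; Kif5a, Kif6 and Kif9 lay under the filter. After cisplatin 29 were higher (45.3%), 26 were lower (40.6%) and 9 were not called, in a table where 81.3% of all genes tested were called, 40.1% higher and 41.1% lower. The share called is thus near that of the whole table, and the median log2 difference was 0.07, against -0.003 over all genes tested. The values of the 6 libraries did not overlap between the groups in 59 of the 64 genes, beside 84.2% of all genes tested. Kif17, Kif26b, Dynlt1a, Dynlt1c and Dync2li1 passed the filter only through their control libraries, so they had to be lower, and all counts are given as descriptions. By the adjusted p of the authors' deposited table, 30 of the 67 were higher and 28 lower under 0.05, and the sign matched that of the limma fit in all 64 tested genes.

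**Figure D1:**
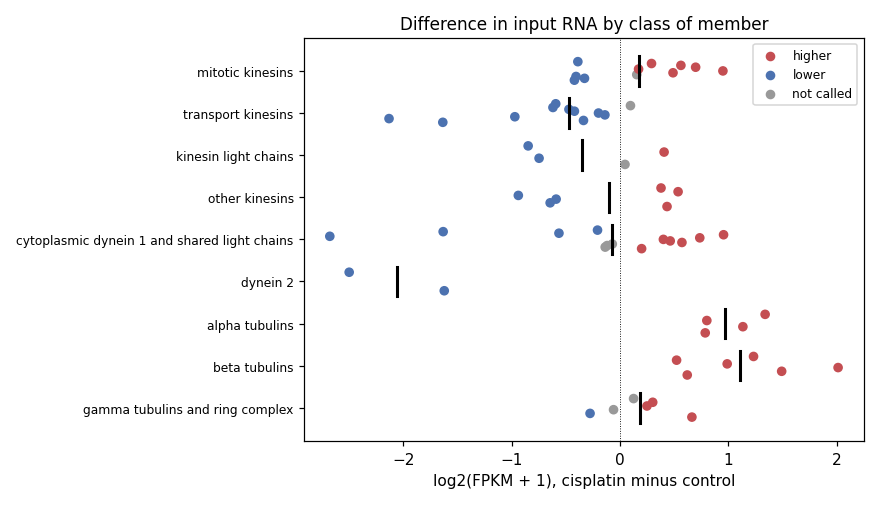
Log2 difference in input RNA (cisplatin minus control, log2(FPKM + 1), x axis) for each tested gene by class, with each point a gene, coloured by its limma call (adjusted p of 0.05), and black bars at class medians. All 10 alpha and beta tubulins lie to the right of 0, 10 of 11 transport kinesins lie to the left, and mitotic kinesins lie on both sides.

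Mitotic kinesins moved both ways: 6 of 11 rose (54.5%), 4 fell (36.4%) and 1 was not called, with a median log2 difference of 0.17. Beside this, 40.1% of all genes tested were higher and 41.1% lower. Kif20a had the largest difference upward and Kif11 the largest downward. Kif20a, which carries the chromosomal passenger complex to the central spindle, had 72.4, 73.9 and 75.9 FPKM in the cisplatin libraries, against 36.9, 38.8 and 37.99 FPKM in the control libraries, a 1.96-fold difference in means (log2 difference 0.95 ± 0.034 SE, limma adjusted p = 3.98e-07). No control library came near the lowest cisplatin library. Kif22, a chromokinesin that binds chromosome arms, had 22.3, 23.8 and 22.2 FPKM in the cisplatin and 13.8, 13.6 and 13.5 FPKM in the control libraries (log2 difference 0.70 ± 0.039 SE, limma adjusted p = 2.58e-06). Kif23, a motor of the centralspindlin complex needed for cytokinesis, had 19.7, 19.1 and 19.4 FPKM with cisplatin, against 12.9, 12.4 and 13.2 FPKM in controls (log2 difference 0.56 ± 0.038 SE, limma adjusted p = 6.64e-06). In both genes every cisplatin library lay above every control library, with a gap several times the spread within a group. Kif18b, which regulates microtubule ends and spindle position, had 17.6, 16.9 and 16.1 FPKM in the cisplatin libraries, against 11.7, 12 and 11.5 FPKM in the control libraries (log2 difference 0.49 ± 0.045 SE, limma adjusted p = 3.41e-05). Kif2c, a microtubule depolymerase at kinetochores, had 20.9, 21.8 and 20.4 FPKM in the cisplatin and 16.8, 16.8 and 17.4 FPKM in the control libraries (log2 difference 0.29 ± 0.039 SE, limma adjusted p = 0.000263). These groups also did not overlap, at smaller differences. Kif20b, a motor of late cytokinesis, had 58.8, 60.6 and 64.5 FPKM with cisplatin, against 54.7, 53.6 and 54.6 FPKM in controls (log2 difference 0.17 ± 0.040 SE, limma adjusted p = 0.00512). Its groups were separate but close, and its call was lost when the libraries were rescaled to a common FPKM sum (log2 difference 0.07, limma adjusted p = 0.126) or quantile normalized (log2 difference 0.01, limma adjusted p = 0.889).

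The mitotic kinesins that fell included both motors that push the spindle poles apart. Kif11, the main motor of spindle bipolarity, had 46.4, 44.6 and 49.0 FPKM in the cisplatin libraries, against 61.6, 63.6 and 63.0 FPKM in the control libraries (log2 difference -0.42 ± 0.041 SE, limma adjusted p = 4.32e-05). Kif15, which can take over part of that task, had 11.98, 10.2 and 12.2 FPKM in the cisplatin and 15.3, 15.7 and 15.4 FPKM in the control libraries (log2 difference -0.41 ± 0.067 SE, limma adjusted p = 0.000876). The highest cisplatin library lay below the lowest control library in both. Kif4, a chromokinesin that sets the length of the central spindle, had 19.7, 19.5 and 20.7 FPKM with cisplatin, against 26.6, 26.1 and 26.5 FPKM in controls (log2 difference -0.39 ± 0.036 SE, limma adjusted p = 3.4e-05). Kif14, a midbody motor of cytokinesis, had 6.73, 6.51 and 7.45 FPKM in the cisplatin libraries, against 8.89, 8.66 and 9.15 FPKM in the control libraries (log2 difference -0.33 ± 0.058 SE, limma adjusted p = 0.00122). Both of these were separate between the groups as well. Kif18a, which dampens chromosome oscillation at the metaphase plate, had 2.00, 2.19 and 2.32 FPKM in the cisplatin and 1.80, 1.78 and 1.96 FPKM in the control libraries and was not called (log2 difference 0.15 ± 0.065 SE, limma adjusted p = 0.0596), though its groups did not overlap. It passed the threshold with quantile normalization (limma adjusted p = 0.0056) and with limma-voom on the recovered reads (limma adjusted p = 0.0245).

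Transport kinesins pointed one way: 10 of 11 tested members fell, 0 rose and Kif5b was not called, beside a background of 41.1% lower, and the median log2 difference was -0.47. The 10 include Kif17, which passed the filter only through its control libraries and so had to be lower. The size ranged from -0.14 in Kif1b to -2.13 in Kif16b. Kif16b, which moves early endosomes, had 1.86, 1.90 and 1.61 FPKM with cisplatin, against 11.7, 11.2 and 10.8 FPKM in controls, so its control mean was 6.26 times its cisplatin mean (log2 difference -2.13 ± 0.062 SE, limma adjusted p = 1.9e-07). Kif13a, a motor of recycling endosomes, had 1.60, 1.47 and 1.93 FPKM in the cisplatin libraries, against 7.46, 7.27 and 7.03 FPKM in the control libraries, with a control mean 4.36 times the cisplatin mean (log2 difference -1.63 ± 0.076 SE, limma adjusted p = 1.12e-06). The cisplatin libraries of both genes lay between 1 and 2 FPKM, far below every control library. Kif17, a homodimeric motor that carries cargo in dendrites and cilia, had 0.126, 0.157 and 0.198 FPKM in the cisplatin and 1.41, 1.18 and 1.23 FPKM in the control libraries (log2 difference -0.97 ± 0.064 SE, limma adjusted p = 5.72e-06). Its control mean was 7.95 times its cisplatin mean, a larger fold than that of Kif16b, and it rests on 28 reads in the cisplatin and 196 in the control libraries. The motor subunits of heterotrimeric kinesin, which drives outward transport in cilia and also moves vesicles, fell by smaller amounts. Kif3b had 14.5, 14.3 and 15.2 FPKM with cisplatin, against 21.2, 20.1 and 20.9 FPKM in controls (log2 difference -0.47 ± 0.041 SE, limma adjusted p = 2.35e-05). Kif3c, an alternative to Kif3b as partner of Kif3a, had 3.37, 3.33 and 3.04 FPKM in the cisplatin libraries, against 5.48, 5.65 and 5.43 FPKM in the control libraries (log2 difference -0.62 ± 0.056 SE, limma adjusted p = 2.87e-05). Kif3a, the common partner, averaged 10.7 ± 0.123 FPKM in cisplatin-treated and 14.6 ± 0.663 FPKM in control cells (log2 difference -0.42 ± 0.044 SE, limma adjusted p = 6.85e-05). None of these groups overlapped.

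The heavy chains of conventional kinesin, which carries many cargoes and is the most abundant transport motor here, were not all called. Kif5c, mainly a neuronal form, had 1.46, 1.59 and 1.56 FPKM in the cisplatin and 2.85, 2.86 and 2.77 FPKM in the control libraries (log2 difference -0.59 ± 0.055 SE, limma adjusted p = 3.35e-05). Kif5b, the ubiquitous form, had 105, 104 and 119 FPKM with cisplatin, against 101, 101 and 104 FPKM in controls and was not called (log2 difference 0.10 ± 0.053 SE, limma adjusted p = 0.130). Its lowest cisplatin library stood just above its highest control library, at 104.3 against 103.8 FPKM, and with quantile normalization it was called lower (log2 difference -0.15, limma adjusted p = 0.0199). Kif5a, another neuronal form, was listed at 0 in all 3 cisplatin libraries and had 81 reads in the control libraries, at 0.196, 0.231 and 0.0859 FPKM. The remaining transport motors were lower by modest amounts, with log2 differences of -0.34 in Kif13b, a motor of membrane vesicles, -0.20 in Kif1c, an integrin transporter, and -0.14 in Kif1b, which carries mitochondria and vesicle precursors (limma adjusted p = 0.00111, 0.000613 and 0.0141). The call of Kif1b was lost without control replicate 3 (limma adjusted p = 0.0544).

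**Figure D2:**
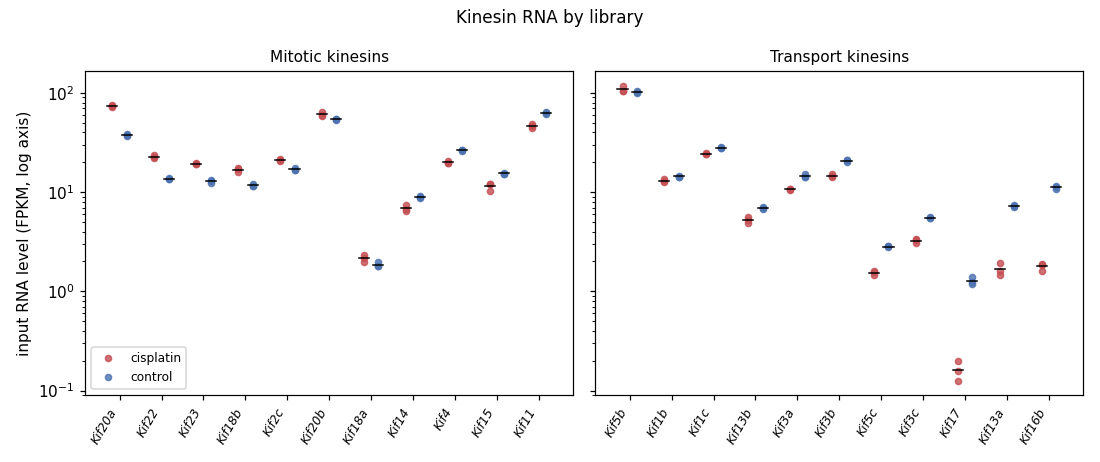
Input RNA level (FPKM, log axis) of each tested mitotic kinesin (left panel) and transport kinesin (right panel); each point is a library, red for cisplatin and blue for control, and bars mark group means. The groups of Kif20a and Kif16b are plainly apart, with cisplatin means of 74.1 and 1.79 FPKM against control means of 37.9 and 11.2 FPKM.

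Set side by side, the summed FPKM of the mitotic kinesins was 299, 299 and 310 in the cisplatin and 261, 263 and 264 in the control libraries. The summed FPKM of the transport kinesins was 181, 180 and 196 in the cisplatin and 215, 213 and 217 in the control libraries. The groups of both sums were separate and lay in opposite order, but without Kif20a the mitotic sum was 226.1, 225 and 234 FPKM in the cisplatin and 224, 224 and 226 FPKM in the control libraries, and these overlapped. The FPKM of all genes summed to 1.07 times as much in the cisplatin as in the control libraries. Kif5b alone averaged 109 ± 8.21 FPKM in cisplatin-treated and 102 ± 1.60 FPKM in control cells, and without it the sum was 76.3 ± 1.10 FPKM in cisplatin-treated and 112.9 ± 0.929 FPKM in control cells (SD, n = 3 each). Because the classes hold different genes, this contrast between classes was described and not tested.

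Kinesin light chains, which link the conventional heavy chains to cargo, were split. Klc4 had 19.3, 19.6 and 17.6 FPKM in the cisplatin libraries, against 33.1, 35.8 and 35 FPKM in the control libraries (log2 difference -0.85 ± 0.052 SE, limma adjusted p = 3.76e-06). Klc2 had 5.10, 5.04 and 6.24 FPKM in the cisplatin and 9.40, 10.5 and 9.52 FPKM in the control libraries (log2 difference -0.75 ± 0.084 SE, limma adjusted p = 9.8e-05). Both fell with no overlap. Klc3, a form best known from the testis, had 3.06, 3.51 and 3.32 FPKM with cisplatin, against 2.11, 2.43 and 2.20 FPKM in controls and rose (log2 difference 0.41 ± 0.068 SE, limma adjusted p = 0.000932). Klc1, the most abundant of the light chains here, had 60.4, 61.1 and 61.9 FPKM in the cisplatin libraries, against 59.1, 59.5 and 58.9 FPKM in the control libraries and was not called (log2 difference 0.046 ± 0.027 SE, limma adjusted p = 0.156). Its groups were separate but close, and its sign turned with rescaling (log2 difference -0.05) and with quantile normalization (log2 difference -0.11, limma adjusted p = 0.00836).

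Of the 6 remaining kinesins tested 3 rose and 3 fell, beside 40.1% higher and 41.1% lower of all genes tested. Kif26b passed the filter only through its control libraries, so it had to be lower. Kif21a, which slows microtubule growth at the cell cortex, had 44.0, 44.2 and 46.5 FPKM in the cisplatin and 33.0, 33.3 and 32.6 FPKM in the control libraries (log2 difference 0.43 ± 0.034 SE, limma adjusted p = 1.31e-05). Kif2a, a depolymerase of spindle poles and of interphase microtubules, had 12.2, 11.8 and 13.4 FPKM with cisplatin, against 8.29, 8.13 and 8.48 FPKM in controls (log2 difference 0.54 ± 0.054 SE, limma adjusted p = 5.62e-05). Kif7, a regulator of Hedgehog signalling at the tip of the cilium, had 8.62, 9.61 and 8.38 FPKM in the cisplatin libraries, against 6.73, 6.60 and 6.43 FPKM in the control libraries (log2 difference 0.38 ± 0.059 SE, limma adjusted p = 0.000602). In these genes each cisplatin library was above all control libraries. Kif21b, the neuronal relative of Kif21a, had 1.51, 1.89 and 1.42 FPKM in the cisplatin and 3.18, 2.89 and 3.12 FPKM in the control libraries (log2 difference -0.64 ± 0.081 SE, limma adjusted p = 0.000190). Kif24, a centriolar depolymerase that restrains cilium assembly, had 2.33, 2.07 and 2.16 FPKM with cisplatin, against 3.65, 3.69 and 4.04 FPKM in controls (log2 difference -0.59 ± 0.063 SE, limma adjusted p = 7.42e-05). Kif26b, a kinesin known from kidney development, had 0.185, 0.149 and 0.130 FPKM in the cisplatin libraries, against 1.31, 1.19 and 1.14 FPKM in the control libraries (log2 difference -0.94 ± 0.059 SE, limma adjusted p = 4.41e-06). Here each cisplatin library was below all control libraries. The untested Kif9, a kinesin of motile cilia and flagella, had 1 read in the cisplatin and 189 in the control libraries, and Kif6 had 11 and 14. Kif1bp, which binds kinesins and is no motor itself, was not called (log2 difference -0.033 ± 0.062 SE, limma adjusted p = 0.636).

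Cytoplasmic dynein and its shared light chains were mixed, with 6 of 13 tested genes higher, 4 lower and 3 not called. The background was 40.1% higher and 41.1% lower. Of the 4 lower, Dynlt1a and Dynlt1c passed the filter only through their control libraries, so they had to be lower. Dync1h1, the heavy chain that holds the motor, had 97.6, 98.1 and 89.4 FPKM in the cisplatin and 82.7, 82.9 and 82.2 FPKM in the control libraries (log2 difference 0.20 ± 0.041 SE, limma adjusted p = 0.00288). The groups were separate, but the difference was lost with rescaling (log2 difference 0.10, limma adjusted p = 0.0646) and with quantile normalization (log2 difference -0.02, limma adjusted p = 0.721). Dync1li2, a light intermediate chain that binds cargo adaptors, had 26.8, 26.9 and 26.3 FPKM with cisplatin, against 17.8, 17.9 and 17.2 FPKM in controls (log2 difference 0.57 ± 0.034 SE, limma adjusted p = 3.39e-06). Its paralog Dync1li1, which takes up the same place in the complex, averaged 27.4 ± 1.72 FPKM in cisplatin-treated and 28.8 ± 0.316 FPKM in control cells and was not called, with overlapping groups (log2 difference -0.071 ± 0.048 SE, limma adjusted p = 0.206). The intermediate chains, which hold the light chains and bind dynactin, were not called either: Dync1i1 averaged 3.53 ± 0.272 FPKM in cisplatin-treated and 3.99 ± 0.363 FPKM in control cells and Dync1i2 averaged 12.4 ± 0.974 FPKM in cisplatin-treated and 13.5 ± 0.0610 FPKM in control cells (limma adjusted p = 0.136 and 0.0894). All 3 were called lower with rescaling, Dync1i1 at a log2 difference of -0.22, Dync1i2 at -0.21 and Dync1li1 at -0.17 (limma adjusted p = 0.0358, 0.00817 and 0.0103). Dync1i2 and Dync1li1 were also called lower with quantile normalization (-0.15 and -0.17, limma adjusted p = 0.0304 and 0.0106) and without cisplatin replicate 3 (-0.17 and -0.11, limma adjusted p = 0.0101 and 0.0404), and Dync1i2 with limma-voom (-0.13, limma adjusted p = 0.0442).

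Among the light chains, Dynlrb1 of the roadblock family had 23.9, 28.8 and 19.9 FPKM in the cisplatin libraries, against 13.3, 13.8 and 14.9 FPKM in the control libraries (log2 difference 0.74 ± 0.12 SE, limma adjusted p = 0.000802). Its cisplatin libraries were spread widely but all lay above the control libraries. Dynll1 and Dynll2, the small hub chains that also serve many other proteins, were higher by 0.46 and 0.40 on the log2 scale (limma adjusted p = 0.0258 and 0.00223). The call of Dynll1 was lost with rescaling (limma adjusted p = 0.053) and without cisplatin replicate 1, cisplatin replicate 3 or control replicate 3 (limma adjusted p = 0.0791, 0.0652 and 0.0828). Dynlt3 was lower (log2 difference -0.21, limma adjusted p = 0.0340), but did not pass without cisplatin replicate 1 or any 1 control replicate (limma adjusted p between 0.0656 and 0.0943).

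The Dynlt1 light chain is encoded in the mouse by near-identical copies on chromosome 17, between which the authors' counting can divide reads, so the values of single copies are uncertain. Dynlt1a had 0.555, 0.265 and 0.0611 FPKM in the cisplatin and 7.22, 7.06 and 7.22 FPKM in the control libraries (log2 difference -2.68 ± 0.13 SE, limma adjusted p = 1.39e-06). Dynlt1f had 4.23, 2.15 and 5.23 FPKM with cisplatin, against 14.2, 12.5 and 14.0 FPKM in controls (log2 difference -1.63 ± 0.23 SE, limma adjusted p = 0.000354). Both were lower in every cisplatin library. Dynlt1c had 0.806, 0.434 and 0.732 FPKM in the cisplatin libraries, against 1.52, 1.46 and 1.33 FPKM in the control libraries (log2 difference -0.56 ± 0.097 SE, limma adjusted p = 0.00104). Dynlt1b had 4.56, 4.18 and 4.02 FPKM in the cisplatin and 1.56, 1.76 and 1.81 FPKM in the control libraries and was the copy that was higher (log2 difference 0.95 ± 0.068 SE, limma adjusted p = 8.3e-06). Summed over the copies, the level was 10.2, 7.03 and 10.03 FPKM in the cisplatin and 24.5, 22.7 and 24.3 FPKM in the control libraries. With the pseudogene Dynlt1-ps1 added, it was 32.7 ± 4.76 FPKM in cisplatin-treated and 65.5 ± 3.57 FPKM in control cells (SD, n = 3 each). FPKM is scaled by the length of each copy, so these sums still depend on how reads were divided. Whole reads summed over the copies numbered 252, 207 and 223 in the cisplatin and 536, 507 and 499 in the control libraries, though each cisplatin library held more fragments in all than any control library. The sums were lower with cisplatin and did not overlap.

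Both genes that the rule found of dynein 2, the motor of inward transport in cilia, were lower. They are only a part of that complex. Dync2h1, its heavy chain, had 1.19, 0.942 and 1.26 FPKM with cisplatin, against 5.74, 5.42 and 5.46 FPKM in controls (log2 difference -1.62 ± 0.073 SE, limma adjusted p = 1e-06). Dync2li1, its light intermediate chain, was listed at 0 in cisplatin replicates 2 and 3 and had 0.0622 FPKM in cisplatin replicate 1, against 4.31, 6.04 and 4.12 FPKM in the control libraries (log2 difference -2.50 ± 0.12 SE, limma adjusted p = 1.45e-06). It had 2 reads in the cisplatin and 430 in the control libraries, so the log2 difference is set largely by the pseudocount. Dync2li1 passed the filter only through its control libraries, so it had to be lower. The cisplatin libraries of both genes lay far below the control libraries.

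Alpha and beta tubulins, which pair into the dimer of the microtubule wall, all rose: 10 of 10, with a median log2 difference of 1.06 and a range of 0.52 to 2.01, beside 40.1% of all genes tested. Tuba1b, the most abundant alpha form here, had 92.1, 92.7 and 87.2 FPKM in the cisplatin libraries, against 41.7, 41.6 and 39.2 FPKM in the control libraries, a 2.22-fold difference (log2 difference 1.13 ± 0.040 SE, limma adjusted p = 3.84e-07). Tuba1a, prominent in neurons, had 56.7, 55.5 and 54.1 FPKM in the cisplatin and 31.2, 32.6 and 31.3 FPKM in the control libraries (log2 difference 0.79 ± 0.034 SE, limma adjusted p = 8.49e-07). Tuba1c, a form found in many tissues, had 37.1, 40.0 and 33.2 FPKM with cisplatin, against 21.0, 20.6 and 20.3 FPKM in controls (log2 difference 0.80 ± 0.065 SE, limma adjusted p = 1.68e-05). In each the lowest cisplatin library stood well above the highest control library. Tuba4a, which lacks the encoded terminal tyrosine of other alpha tubulins, had 8.15, 8.23 and 7.30 FPKM in the cisplatin libraries, against 2.38, 2.62 and 2.55 FPKM in the control libraries (log2 difference 1.34 ± 0.063 SE, limma adjusted p = 1.21e-06). The summed alpha tubulin level was 194, 196 and 182 FPKM in the cisplatin and 96.2, 97.4 and 93.3 FPKM in the control libraries, a 1.99-fold difference in means.

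Beta tubulins held the highest levels of all the genes described here. Tubb5, the main form of dividing cells, had 362, 372 and 332 FPKM in the cisplatin and 248, 248 and 245 FPKM in the control libraries (log2 difference 0.52 ± 0.046 SE, limma adjusted p = 2.57e-05). Tubb4b, another widely used form, had 287, 273 and 266 FPKM with cisplatin, against 139, 138 and 137 FPKM in controls (log2 difference 0.99 ± 0.036 SE, limma adjusted p = 4.35e-07). Tubb6, a form of many non-neuronal tissues, had 93.1, 102 and 86.2 FPKM in the cisplatin libraries, against 40.3, 40.3 and 37.2 FPKM in the control libraries (log2 difference 1.23 ± 0.064 SE, limma adjusted p = 1.86e-06). The groups did not overlap in these abundant forms, and the forms below Tubb5 rose by more than Tubb5 did. Tubb2b had 46.6, 50.04 and 40.4 FPKM in the cisplatin and 15.9, 15.0 and 15.8 FPKM in the control libraries (log2 difference 1.49 ± 0.075 SE, limma adjusted p = 1.59e-06). Tubb2a had 48.7, 46.1 and 42.8 FPKM with cisplatin, against 31.1, 28.4 and 28.9 FPKM in controls (log2 difference 0.62 ± 0.057 SE, limma adjusted p = 3.31e-05). Tubb3, the beta tubulin used as a marker of neurons, had 8.88, 10.2 and 6.70 FPKM in the cisplatin libraries, against 1.71, 1.24 and 1.14 FPKM in the control libraries, a 6.30-fold difference in means and the largest log2 difference upward of any gene here (log2 difference 2.01 ± 0.15 SE, limma adjusted p = 1.07e-05). Its cisplatin libraries varied more than those of the other tubulins but none came near the control range. Coding sequences of tubulin paralogs are much alike, and the sources used here do not give how the authors' counting shared reads among them.

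The summed beta tubulin level was 846, 853 and 774 FPKM in the cisplatin and 476, 470 and 465 FPKM in the control libraries, a 1.75-fold difference in means. The mix of forms differed too. Tubb5 held 43.1% ± 0.466 of the beta sum in cisplatin-treated and 52.5% ± 0.353 in control cells, Tubb4b 33.4% ± 1.25 and 29.4% ± 0.110, and Tubb3 1.04% ± 0.162 and 0.289% ± 0.0609 (SD, n = 3 each). Among alpha tubulins Tuba4a held 4.14% ± 0.103 of the sum in cisplatin-treated and 2.63% ± 0.138 in control cells. None of these shares overlapped between the groups.

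Promoters are shown for the 3 beta tubulins whose windows held a CCAAT box: the 120 bases before the annotated start, 5′ to 3′, with CCAAT or its reverse complement ATTGG in capitals (GRCm38.p6).
Tubb4b, chr2:25224703-25224822, minus strand: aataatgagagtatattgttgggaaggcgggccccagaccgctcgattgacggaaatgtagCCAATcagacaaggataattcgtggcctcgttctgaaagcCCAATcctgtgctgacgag
Tubb5, chr17:35838302-35838421, minus strand: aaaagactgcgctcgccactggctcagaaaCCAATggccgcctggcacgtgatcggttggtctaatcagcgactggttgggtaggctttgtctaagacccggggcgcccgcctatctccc
Tubb3, chr8:123411433-123411552, plus strand: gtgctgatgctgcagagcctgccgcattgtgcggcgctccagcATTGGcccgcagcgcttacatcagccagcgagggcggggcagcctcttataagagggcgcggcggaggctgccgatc
CCAAT was found on either strand in the 300-base windows of 3 of 4 beta tubulins, 2 of 4 alpha tubulins, 6 of 10 mitotic kinesins and 3 of 9 transport kinesins, against 37.4% of all promoters. The window of Tubb2a held none, though its RNA also rose, and Tubb2b and Tubb6 had no window. Outside the tubulins the letters stood before genes that were lower, such as Klc4 and Dync2h1, and higher, such as Dynll1. Whether CCAAT boxes bear on these differences was not tested.

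**Figure D3:**
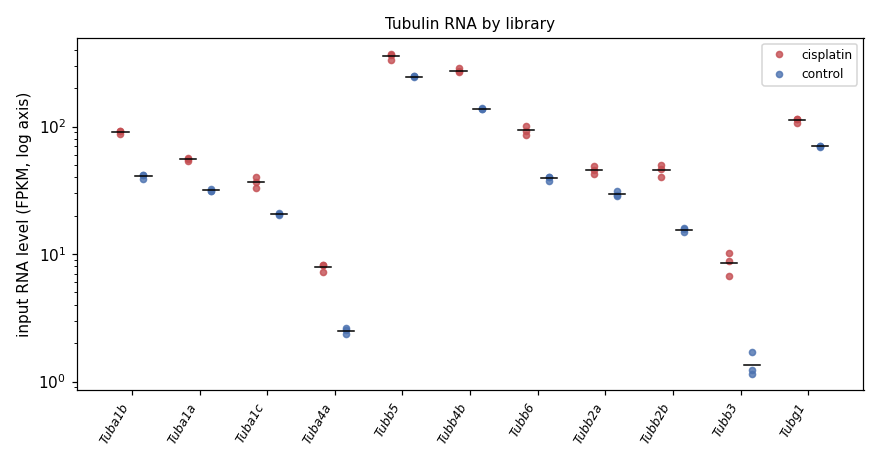
Input RNA level (FPKM, log axis) of the alpha tubulins, beta tubulins and Tubg1, each ordered within its class by mean level; each point is a library, red for cisplatin and blue for control, and bars mark group means. In all 11 genes every cisplatin library lies above every control library, with Tubb3 the farthest apart at means of 8.58 and 1.36 FPKM.

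Gamma tubulin and the ring complex on which microtubules start to grow had a median log2 difference of 0.19. In this class 3 of 6 were higher and 1 lower, beside 40.1% and 41.1% of all genes tested. Tubg1, the gamma tubulin itself, had 115, 114 and 107 FPKM in the cisplatin and 69.7, 70.5 and 70.2 FPKM in the control libraries and rose (log2 difference 0.66 ± 0.035 SE, limma adjusted p = 2e-06). Of the ring proteins, Tubgcp4 had 8.18, 8.42 and 8.27 FPKM with cisplatin, against 6.72, 6.64 and 7.11 FPKM in controls and rose (log2 difference 0.25 ± 0.046 SE, limma adjusted p = 0.00159). Tubgcp5 had 3.01, 2.50 and 3.29 FPKM in the cisplatin libraries, against 2.34, 2.23 and 1.98 FPKM in the control libraries and rose (log2 difference 0.30 ± 0.091 SE, limma adjusted p = 0.0168). The call of Tubgcp5 was lost without cisplatin replicate 1 or control replicate 3 (limma adjusted p = 0.0527 and 0.0628). Tubgcp2, a core subunit of the smaller gamma-tubulin complex, had 19.0, 21.3 and 16.8 FPKM in the cisplatin and 22.6, 23.4 and 23.6 FPKM in the control libraries and fell (log2 difference -0.28 ± 0.079 SE, limma adjusted p = 0.0134). Its partner in that core, Tubgcp3, had 1.77, 2.24 and 2.05 FPKM with cisplatin, against 2.09, 1.95 and 2.41 FPKM in controls and was not called, with overlapping groups (log2 difference -0.060 ± 0.085 SE, limma adjusted p = 0.531). Tubgcp6, found only in the larger ring, had 13.6, 13.3 and 11.9 FPKM in the cisplatin libraries, against 11.9, 11.95 and 11.4 FPKM in the control libraries, with 1 cisplatin value inside the control range, and was not called (log2 difference 0.13 ± 0.056 SE, limma adjusted p = 0.0710).

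Genes that work with these motors and tubulins were followed as 5 lists. Of kinesins with names outside the rule, 2 of 4 tested rose and 0 fell: Kifc1, an inward motor that focuses spindle poles, averaged 35.3 ± 1.52 FPKM in cisplatin-treated and 20.3 ± 0.882 FPKM in control cells and Kifc3, an inward motor of junctions and vesicles, 10.6 ± 0.790 FPKM in cisplatin-treated and 7.87 ± 0.299 FPKM in control cells (log2 differences 0.77 and 0.38). The kinetochore motor Cenpe averaged 42.7 ± 2.89 FPKM in cisplatin-treated and 41.1 ± 0.406 FPKM in control cells and Kifap3, the third subunit of heterotrimeric kinesin, 14.9 ± 1.03 FPKM in cisplatin-treated and 14.3 ± 0.686 FPKM in control cells; neither was called. Of 22 dynactin genes and dynein regulators 9 rose and 10 fell. The adaptor Bicd2 (39.5 ± 3.07 FPKM in cisplatin-treated and 15.5 ± 0.412 FPKM in control cells) and Spdl1 (39.5 ± 1.74 FPKM in cisplatin-treated and 17.5 ± 0.405 FPKM in control cells), which recruits dynein to kinetochores, rose the most. Dctn6 (9.95 ± 0.750 FPKM in cisplatin-treated and 25.4 ± 1.03 FPKM in control cells), a dynactin subunit, and Hook3 (1.82 ± 0.164 FPKM in cisplatin-treated and 5.03 ± 0.133 FPKM in control cells), an adaptor of endosomes, fell the most.

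Of 13 cargo adaptors 6 rose and 5 fell. The lysosomal GTPase Arl8a and the mitochondrial GTPase Rhot2 rose by 0.57 and 0.48 on the log2 scale, while Rhot1, the paralog of Rhot2, and Trak1, its partner in mitochondrial transport, had log2 differences of -1.15 and -0.68. Of 16 genes of tubulin folding and modification 8 rose and 7 fell. The folding cofactor Tbcc (5.82 ± 0.993 FPKM in cisplatin-treated and 2.70 ± 0.140 FPKM in control cells) and the deglutamylase Agbl5 (2.14 ± 0.0312 FPKM in cisplatin-treated and 1.16 ± 0.0176 FPKM in control cells) rose the most, whereas the cofactor Tbce (0.0667 ± 0.00791 FPKM in cisplatin-treated and 4.10 ± 0.195 FPKM in control cells) and Arl2, a GTPase that works with these cofactors (2.91 ± 0.361 FPKM in cisplatin-treated and 6.76 ± 0.1001 FPKM in control cells), fell the most. Of 29 microtubule and spindle associated proteins 18 rose and 8 fell, with a median log2 difference of 0.22. The stabilizer Ckap2 (66.9 ± 2.30 FPKM in cisplatin-treated and 29.4 ± 0.596 FPKM in control cells) and the augmin subunit Haus1 (17.7 ± 1.53 FPKM in cisplatin-treated and 8.34 ± 0.671 FPKM in control cells) led the rise, and the bundling protein Nusap1 (9.80 ± 0.279 FPKM in cisplatin-treated and 17.1 ± 0.0926 FPKM in control cells) and the severing enzyme Katna1 (13.8 ± 1.48 FPKM in cisplatin-treated and 22.3 ± 0.417 FPKM in control cells) led the fall. Tbce reached 1 FPKM only in control libraries, so it had to be lower. All of these named changes passed the limma threshold, and the shares stand beside the background of 40.1% higher and 41.1% lower.

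The length of a gene moved with these results. Among the 64 tested genes the log2 difference and the RefSeq gene span (GRCm38.p6) had a Spearman correlation of -0.571, against -0.234 over 10828 tested genes of the table with a span; genes are not independent replicates. Of 15 members spanning under 10 kb 12 rose and 3 fell, where 48.4% of all genes of that length rose and 31.4% fell. Of 18 between 10 and 30 kb 12 rose and 4 fell (47.2% and 34.0% of all genes). Of 21 between 30 and 100 kb 4 rose and 11 fell (34.2% and 44.4%), and of 10 at 100 kb or more 1 rose and 8 fell (13.2% and 73.4%). The median span was 4.05 kb for alpha and beta tubulins, 41.7 kb for transport kinesins and 45.5 kb for mitotic kinesins.

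The split among mitotic kinesins also ran with length: the members that rose spanned 8.65 kb (Kif20a) to 53.4 kb (Kif20b), and those that fell 45.5 kb (Kif11) to 101 kb (Kif4). Kif16b and Kif13a, the transport motors with the largest differences on the log2(FPKM + 1) scale, span 283 and 181 kb, while Kif17, with the larger fold of means, spans 39.7 kb. Kif21a rose at 117 kb, while Dynlt1a and Dynlt1f fell at 11.2 and 9.36 kb. With members of 100 kb or more left out, the median log2 difference was -0.45 in transport and 0.23 in mitotic kinesins. The part of gene length in the differences between classes was not tested beyond this.

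**Figure D4:**
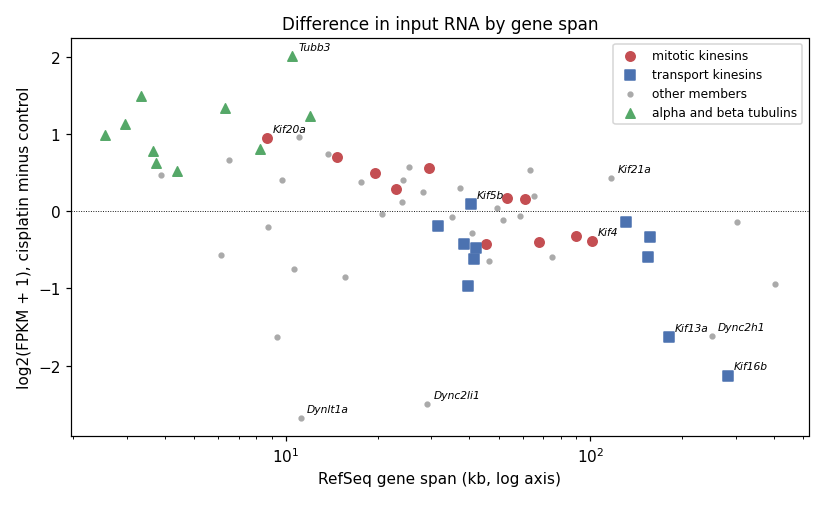
Log2 difference in input RNA (cisplatin minus control, y axis) against RefSeq gene span in kb (log axis) for the 64 tested genes, with red circles for mitotic kinesins, blue squares for transport kinesins, green triangles for alpha and beta tubulins and grey dots for the rest. The tubulins sit at the short end above 0, and the genes of 100 kb or more lie below 0 apart from Kif21a.

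The authors' deposited table of ac4C peaks held 143 peaks in 54 of the 67 genes. For every peak the authors give a fold enrichment of precipitated over input RNA, and a log2 difference between the treatments with its adjusted p. The file headers leave the direction of that difference unstated, so its sign is given as deposited. At the authors' adjusted p of 0.05, 77 peaks were called (53.8%), against 46.2% of all 19049 peaks. Of the 143, 68 were called with a positive sign (47.6%), against 36.5% of all peaks, and 9 with a negative sign (6.29%), against 9.62%. Dync1h1 alone held 19 of them, and without it 49.2% of 124 peaks were called. Of the members' peaks 70.6% lay in coding sequence and 62.9% were built of several exon blocks, where all peaks had 50.5% and 44.0%. The median fold enrichment was 5.29, against 7.05 over all peaks. A peak has no value per library, so none of these differences has a replicate error.

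Mitotic and transport kinesins had similar shares of called peaks, 11 of 26 (42.3%) and 12 of 28 (42.9%). By place in the transcript, 21 mitotic kinesin peaks lay in coding sequence and 0 in 3′ untranslated regions, and 18 transport kinesin peaks lay in coding sequence and 10 in 3′ untranslated regions, 7 of them in Kif3b and Kif3c, where 29.5% of all peaks lay in 3′ untranslated regions. The difference between the classes was not tested. Peaks were found in 10 of 11 mitotic and 8 of 12 transport kinesin genes; Kif16b, the transport motor with the largest RNA difference on the log2(FPKM + 1) scale, was among the genes with none. The largest called difference of a mitotic kinesin was 6.17 at a coding peak of Kif14 (chr1:136502679-136503398 on mm10). Coding peaks of Kif20a and Kif18b followed at 4.91 and 3.55. The negative calls among mitotic kinesins were a coding peak of Kif15 at -1.46 and another of Kif2c at -1.35. Of the mitotic peaks, 1 in Kif18b had the highest authors' fold enrichment, 34.1, and was not called.

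All 12 called peaks of transport kinesins were positive as deposited. Kif3b had the largest, 6.89, at a peak of 28.2-fold enrichment in the 3′ untranslated region (chr2:153330933-153331172), which was also the most enriched peak of the class. It was followed by coding peaks of Kif1b at 6.24 and Kif13b at 5.54. Kif3a had 2 peaks, both called. Of the light chains only Klc1 had called peaks, 2 with log2 differences of 3.18 and 2.42. Among the other kinesins, Kif24 held the most enriched peak of all members, 44.7-fold in coding sequence (chr4:41428492-41428701), called at 5.29. Kif21a had peaks called in both directions, 5.34 and 2.79 against -3.76, and Kif24 had a second called at -3.02.

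Dynein peaks were carried by the heavy chain. Of the 19 peaks of Dync1h1, 16 were called, 15 positive and 1 negative, with log2 differences between -0.561 and 6.24. Its most positive peaks lay at chr12:110616878-110617782 (6.24) and chr12:110649492-110649799 (5.24), and its negative one at chr12:110626020-110626957 (-0.561). Positive peaks were spread from 15.3 to 65.4 kb after the gene start. The largest difference of the class was 6.57 at a 3′ untranslated peak of Dynlt1f, and Dynlt3 had a 3′ untranslated peak at -3.60. The most enriched peak of the class, 21.2-fold in Dync1i1, was not called. Neither of the dynein 2 peaks, 1 in each gene, was called.

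Every alpha and beta tubulin carried at least 1 peak, 18 in all, of which 12 were called, 10 positive and 2 negative. The most enriched was in the coding sequence of Tubb2b (chr13:34128148-34128905), at 38.8-fold and a log2 difference of 3.43, and Tubb4b had a 34.1-fold coding peak at 1.84 (chr2:25222190-25222726). Tuba1a had a positive and a negative coding peak, 4.83 and -0.948. Tuba1b had 1.95 at a peak in its 5′ untranslated region, Tubb2a had 2.12, and Tuba1c had 1.44. Tubb5, the most abundant tubulin, had its negative peak at -0.398. The peak of Tubb3, whose RNA differed most, was not called, and the most enriched alpha peak, 17.6-fold in Tuba4a, was not called either.

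The gamma tubulin ring genes had 15 peaks, of which 11 were called, 10 of them positive. The largest log2 difference of any member's peak was 7.46, in an exonic peak of Tubgcp3 (chr8:12632251-12637894). Tubgcp6 had 2 at 6.57 and 6.54, the first at 32.9-fold enrichment, and all 4 peaks of Tubgcp2 were positive. The negative call was a coding peak of Tubgcp4 at -3.52.

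Peak calls stood beside the RNA as follows. In genes whose input RNA rose, 38 peaks were called positive, 6 negative and 28 were not called. In genes whose input RNA fell, 20 were positive, 3 negative and 29 not called, and in tested genes not called in RNA 10 were positive, 0 negative and 8 not called. The peak of the untested Kif6 was not called. The positive share was thus 52.8% in genes that rose, 38.5% in genes that fell and 55.6% in genes not called. The peaks of all tested genes in the same sets had 40.2%, 36.7% and 38.6%. Dync1h1 alone held 19 of the peaks in genes that rose, 15 of them positive. Its RNA call was lost with rescaling and with quantile normalization. Without Dync1h1, 42.7% of all the members' peaks were called positive. Positive calls also outnumbered negative ones across the whole table, at 36.5% and 9.62% of all peaks. The members' peaks had 47.6% and 6.29%, and this difference from the whole table was not tested.

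**Figure D5:**
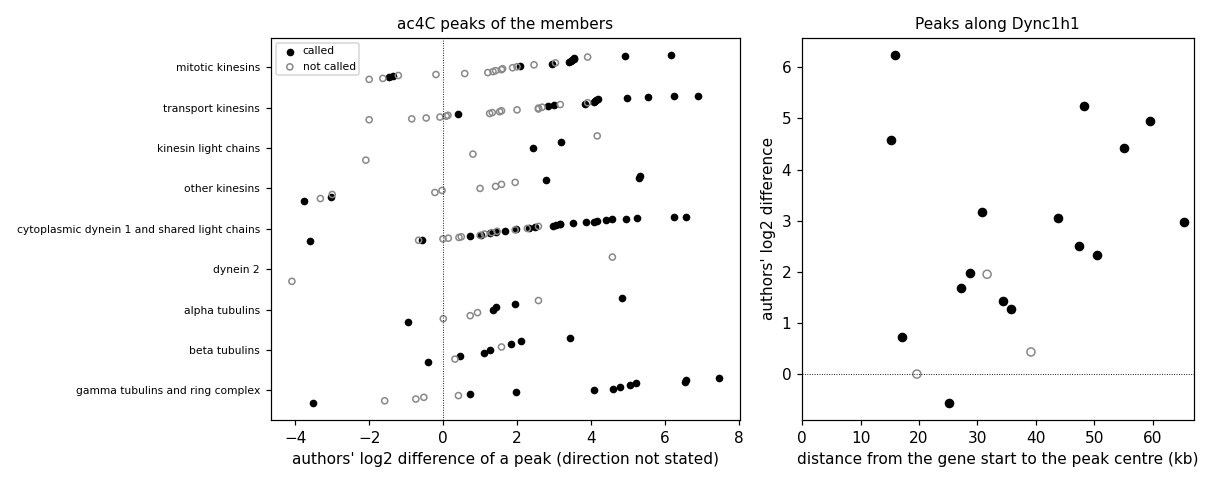
Left, the authors' log2 difference of each ac4C peak (x axis, direction not stated) by class of member, with filled points called at the authors' adjusted p of 0.05 and open points not called; right, the same difference for the 19 peaks of Dync1h1 against their distance in kb from the gene start. Of the members' called peaks, 68 lie to the right of 0 and 9 to the left, and 15 of those to the right belong to Dync1h1.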

How the data were processed

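RNA of ID8 cells was measured in 6 input libraries and in 6 libraries precipitated with an ac4C antibody, stranded by dUTP, per the labels' protocols. Tools named in the submitters' processing notes are fastp, FastQC, HISAT2 and HOMER, with the build mm10; the sources used here do not give the counting tool, its strand setting or the peak caller. For each of 14852 genes the authors deposited an FPKM value per input library, and a log2 fold change between treatments with raw and adjusted p-values. They also deposited 19049 peaks with a fold enrichment (ratio of precipitated over input, per the file headers), a log2 difference between treatments, and log10 p scores per the file headers, which reach far below a usual p range and are used here only at the threshold.

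Genes at 1 FPKM or above in 3 or more of the 6 libraries were fitted with limma 3.58.1 in R 4.3.3. The fit (lmFit, then eBayes with trend) was on log2(FPKM + 1), with 3 cisplatin against 3 control libraries. P-values were adjusted by Benjamini-Hochberg over 11449 genes, with a threshold of 0.05. The code of the fit was also run on simulated data in which few genes changed, unlike here. That run checks the code and not the calls in these data. Whole reads were recovered from the FPKM steps for all 14852 genes (tolerance 0.0001) and used for limma-voom as an alternative; they are understated where the numbers of a gene share a divisor. Adjusted p-values of genes come from the limma fit. Gene spans and promoters were RefSeq's for GRCm38.p6, the assembly behind mm10, and peak coordinates are on mm10, counted from 1. A promoter window belongs to 1 annotated start, which need not be the start used in ID8 cells. Tables and figures were made in Python 3.11.15 (numpy 2.4.6, pandas 2.3.3, scipy 1.17.1, matplotlib 3.10.9).

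Members, classes and lists were chosen with earlier results of these data known. Named were every tested mitotic kinesin, in each other class up to 6 tested members with the smallest adjusted p and the most abundant one, up to 2 genes per direction of a pathway list, up to 3 called peaks per class and sign, and the most enriched peak of each class. Other members were chosen after their values were seen. Alternatives varied the pseudocount, filter, scaling, test, replicate block, libraries, peak threshold and promoter window.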

Additional observations from a re-analysis of the deposited data

How the results depend on the processing

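Of 804 recomputed log2 differences of single members 768 kept their sign and their side of the threshold, and 8 changed sign. Among those that kept their sign, 14 lost the call and 14 gained it. Of the 8 with a changed sign, Kif5b and Klc1 gained a call with quantile normalization, and Dync1h1 lost its call there. The 10 of 10 alpha and beta tubulins called higher, the 4 mitotic kinesins called lower and the 0 transport kinesins called higher had the same counts under every alternative run; transport kinesins called lower numbered 8 to 11. Rescaling the libraries to a common FPKM sum gave a median of -0.093 over all genes tested, against -0.003 as deposited, and medians of 0.088 for mitotic kinesins, -0.57 for transport kinesins, -0.44 for light chains, -0.19 for other kinesins, -0.17 for dynein 1 (with 7 called lower), 0.87 for alpha and 1.01 for beta tubulins, 0.096 for gamma tubulins, and -0.028 for all members, which turned their sign. Quantile normalization gave -1.98 for dynein 2, 0.82 for alpha and 0.92 for beta tubulins and -0.022 for all members, again a turned sign. A filter of 5 FPKM left fewer genes and gave -0.42 for transport kinesins, -0.75 for light chains (0 higher), 0.43 for other kinesins (0 lower) and 0.064 for dynein 1, both of them reversed, -1.62 for dynein 2 (1 lower) and 0.17 for all members. Without a filter the other kinesins stood at -0.30 and all members at -0.014, reversed. A pseudocount of 0.1 gave -0.17 for other kinesins and -3.79 for dynein 2, and limma-voom -0.18 and -4.95. With members of 100 kb or more left out, an alternative chosen after seeing the data, dynein 1 stood at 0.064, reversed, dynein 2 at -2.50 and all members at 0.19.

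Leaving out 1 library at a time gave medians of 0.036 to 0.17 for all members, -0.0997 to 0.2016 for dynein 1, -2.08 to -1.60 for dynein 2, -0.12 to 0.39 for other kinesins and -0.50 to -0.42 for transport kinesins, with 19 to 28 of all members, 1 to 6 of dynein 1, 1 to 2 of dynein 2, 2 to 3 of other kinesins and 8 to 10 of transport kinesins called lower. The low counts come from leaving out any 1 control library, where genes with at least 1 FPKM only in controls no longer pass the filter, and Dynlt3 (limma adjusted p between 0.0714 and 0.0943) and, without control replicate 3, Kif1b (0.0544) lose their calls. Sign changes of single genes were Dync1h1 (-0.016, quantile), Kif5b (-0.0028 rescaled, -0.15 quantile), Klc1 (-0.053 rescaled, -0.11 quantile), Tubgcp3 (0.047 quantile, 0.0008 without cisplatin replicate 1) and Kif1bp (0.0029 without control replicate 2, and -0.084 at the other end of that range). Replicate numbers left no clear pairing in the RNA values: deviations of same-numbered libraries correlated at 0.097, -0.12 and 0.04. These values cannot show whether the samples were paired by design. With the replicate number as a block, medians were as before and 30 members were higher and 26 lower, the added call being Tubgcp6 (log2 difference 0.13, limma adjusted p = 0.0489). At an adjusted p of 0.01 negative peaks fell to 1 for dynein 1 and 0 for gamma tubulins, and with an absolute log2 difference of at least 1 to 1 for dynein 1 and 0 for each of alpha and beta tubulins. In the 250 bases before the start 5 mitotic kinesins held the CHR letters. Depth limits Kif5a, Kif6, Kif9, Kif17, Dync2li1 and Dynlt1a, and the number of 3 libraries a group limits all of them.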

Other observations

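Several motors of cilia, grouped after their values were seen, were lower: Kif3a, Kif3b and Kif17, which carry cargo to the tip, and Dync2h1 and Dync2li1, which bring it back, each passed the limma threshold. Because of how they were grouped, their count says nothing beyond the single values, and Kif17 and Dync2li1 reached 1 FPKM only in control libraries. Their log2 differences ran from -0.42 in Kif3a to -2.50 in Dync2li1. Kifap3, the cargo subunit of the same outward motor, averaged 14.9 ± 1.03 FPKM in cisplatin-treated and 14.3 ± 0.686 FPKM in control cells and was not called (limma adjusted p = 0.386). Kif7, which sits at the tip of the cilium, was higher (0.38), as was the dynein light chain Dynlrb1 (0.74).

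Ttc5, chosen after its value was seen, encodes a protein that binds newly made tubulin and triggers the decay of tubulin mRNA when free tubulin is in excess. It averaged 2.85 ± 0.188 FPKM in cisplatin-treated and 5.13 ± 0.466 FPKM in control cells (log2 difference -0.67, limma adjusted p = 9e-05), while the alpha and beta tubulin genes were higher. Whether these 2 measurements are connected was not tested.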
